A study of Mus musculus with 16 samples.

Results

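The 16 tooth germ pools of the series carry either of a pair of letter codes in their sample names, AZN or ABH, and the 8 AZN pools were compared here with the 8 ABH pools. Both codes hold both genotypes equally: 4 wild-type (WT) and 4 *Rsk2-/Y* pools each. No source used here states what the letters stand for, so they are called series codes. All 16 pools of the series belong to the comparison, and 17215 genes with a probe set of their own were measured. The question was which gene classes and tissues part the codes, and whether this holds in WT and in *Rsk2-/Y* pools taken separately.

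Each pool was a mandibular molar germ preparation of male mouse embryos on a C57Bl6 background at gestation day 14.5, with 4 germs in a pool per the labels. The knockout pools lack *Rsk2* (official symbol *Rps6ka3*, an X-linked serine/threonine kinase downstream of ERK) throughout the animal, by excision of exon 2, and the WT pools came from male littermates. The WT ABH pools are named 11A, 12A, 13A and 25A, the *Rsk2-/Y* ABH pools 14A, 15A, 16A and 26A, the WT AZN pools WT1, WT2, WT3 and an unnumbered pool, and the *Rsk2-/Y* AZN pools an unnumbered pool, Mutant1, Mutant3 and Mutant4. Where the values of single pools are listed, they follow that order. The labels do not say which pools came from separate litters, so p-values measure the spread between these pools.

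At this stage the molar germ is an epithelial bud that folds into a cap around condensed mesenchyme derived from the neural crest. A small group of non-dividing epithelial cells, the enamel knot, secretes SHH, BMP, FGF and WNT ligands, and the mesenchyme replies with activin and BMP4. The germ lies in the mandible beside forming bone, tongue and jaw muscle, vessels and nerve, so that a dissected germ can carry some of each. In a bulk sample, fewer cells of a type and less RNA per cell cannot be told apart.

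The values are log2 signals from whole-transcript arrays, and a difference of 1 on this scale is 2-fold. Array medians over all probe sets were 6.80 to 6.94 in the ABH pools and 6.74 to 6.92 in the AZN pools, with the unnumbered AZN pools at the low end. No pair of arrays held identical values. Correlations between pools over all tested probe sets ranged from 0.986 to 0.997 within a code and from 0.978 to 0.993 between codes. The signal of *Rps6ka3* itself was 10.22, 10.08, 10.19 and 10.19 in the WT ABH pools, 10.08, 10.36, 10.40 and 10.40 in the *Rsk2-/Y* ABH pools, 9.95, 9.61, 9.68 and 10 in the WT AZN pools and 10.04, 9.78, 9.74 and 9.87 in the *Rsk2-/Y* AZN pools. The knockout pools were not lower than the WT pools of their code. A probe set of this array reads many parts of a transcript, so this signal does not check the loss of 1 exon. All 8 AZN pools lay below all 8 ABH pools for this gene, by 0.41 ± 0.07 (log2 difference ± SE, limma adjusted p = 0.000217).

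The codes parted more genes than the genotypes did. With genotype as a block, 994 genes were higher in the AZN pools (5.77% of the genes tested) and 1770 were lower (10.3%), at an adjusted p under 0.1 and a fold change beyond 1.2. The differences were small: 84 of the higher and 202 of the lower genes passed 1.5-fold, and 11 and 23 passed 2-fold. The median difference over all genes was 0.017. Scaling bore on the split between directions. With each array centred on its median, 1301 genes were higher and 1455 lower, and with quantile normalization 1116 were higher and 1470 lower, so that 47.2% and 43.2% of the calls were in the higher direction against 36.0% on the deposited scale. These scalings moved the median of all genes by 0.028 and −0.01. The 8 AZN pools lay above all 8 ABH pools for 592 genes (3.44%) and below them for 925 (5.37%), whether called or not. The series code took 33.3% of the total sum of squares over the 19979 probe sets tested, against 5.96% for genotype, 4.97% for their interaction and 55.8% within the 4 groups. For 4297 probe sets (21.5%) the code alone took over 50% of the sum of squares, and for 46 probe sets genotype did.

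The codes separated in each genotype taken alone. Among WT pools, 692 genes were higher (4.02%) and 1526 lower (8.86%) in AZN. Among *Rsk2-/Y* pools, 1484 were higher (8.62%) and 1934 lower (11.2%). Of the 994 genes higher with genotype as a block, 993 differed in the same direction in both genotypes, 463 were called in both and 46 in neither. All 1770 lower genes differed in the same direction in both genotypes, 1076 were called in both and 73 in neither. The block difference is the mean of the WT and *Rsk2-/Y* differences, so genes called on it mostly share a direction by construction. Over all 17215 genes, called or not, 76.7% differed in the same direction in both genotypes. The WT and *Rsk2-/Y* differences correlated across these genes at a Pearson r of 0.78. No gene was called in opposite directions in WT and *Rsk2-/Y* pools. The WT and *Rsk2-/Y* calls shared 463 higher genes, which is 66.9% of the WT list and 31.2% of the *Rsk2-/Y* list, and 1076 lower genes, which is 70.5% and 55.6%. The WT and *Rsk2-/Y* comparisons share no pools but share 1 estimate of the spread. The first principal component of the WT pools alone held 45.3% of their variance and placed the 4 ABH pools between −15.9 and −13.2 and the 4 AZN pools between 2.15 and 27.6. That of the *Rsk2-/Y* pools held 46.3%, with ABH between −22.1 and −5.38 and AZN between 6.38 and 30.1. Centring on the median changed the WT counts to 998 higher and 1199 lower, and quantile normalization to 897 and 1239. Among *Rsk2-/Y* pools median centring gave 1794 higher and 1699 lower, which turned the balance between directions, and quantile normalization gave 1374 and 1689.

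**Figure D1:**
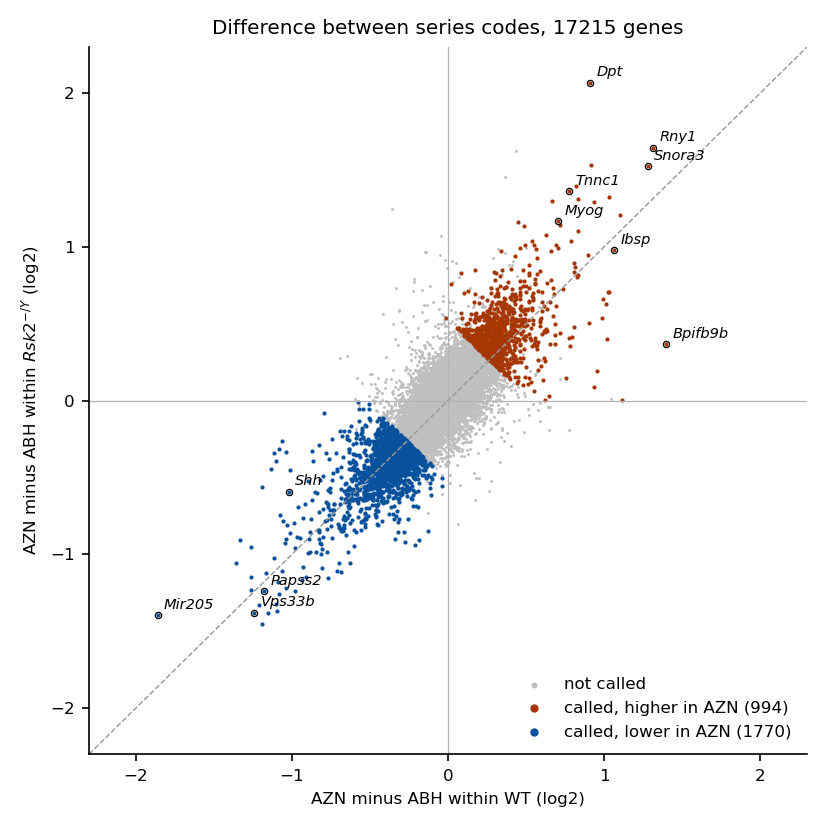
Each point is 1 of 17215 genes, with the AZN minus ABH difference (log2) among WT pools on the horizontal axis and among *Rsk2-/Y* pools on the vertical axis. Orange points are the 994 genes called higher and blue points the 1770 called lower with genotype as a block, grey points were not called, and the dashed line marks equal differences. The called genes lie in the upper right and lower left quadrants, with 1 higher gene just across an axis. Calls were made on the mean of the WT and *Rsk2-/Y* differences, which favours these quadrants.

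A test of the difference between the 2 genotypes' contrasts called no gene. By limma's interaction contrast, 685 genes had a larger (more positive) AZN minus ABH difference in *Rsk2-/Y* than in WT pools at an unadjusted p under 0.05 and 306 a smaller one, and the smallest adjusted p over the genes was 0.458. This does not show that the differences were equal. No single gene was thus shown to part the codes more in one genotype than in the other.

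The genes with the largest differences, among those whose AZN and ABH pools did not overlap in either genotype, included small RNAs at both ends. The gene of the microRNA miR-205 (*Mir205*), an epithelial microRNA, had signals of 7.42, 7.80, 7.59 and 7.92 in WT ABH pools and 7.14, 7.23, 7.06 and 6.95 in *Rsk2-/Y* ABH pools. In the AZN pools it read 5.54, 6.30, 6.02 and 5.42 in WT and 6.11, 5.59, 5.67 and 5.43 in *Rsk2-/Y*. Every AZN pool was thus lower than every ABH pool, by 1.63 ± 0.13 (limma adjusted p = 4.18e-07), with a difference of −1.86 among WT and −1.39 among *Rsk2-/Y* pools. *Vps33b*, which encodes a vesicle docking protein, was at 10.01, 10.19, 10.38 and 10.31 in WT ABH, 9.86, 10.38, 10.26 and 10.39 in *Rsk2-/Y* ABH, 8.95, 8.95, 8.87 and 9.15 in WT AZN and 8.80, 8.75, 8.85 and 8.98 in *Rsk2-/Y* AZN pools. Its AZN pools spanned only 8.75 to 9.15, and the difference of −1.31 ± 0.08 had the smallest adjusted p of the table (3.86e-08, limma).

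Protein coding genes made up most of the rest of the lower end. *Uprt* (a uracil phosphoribosyltransferase family member) was lower in AZN by 1.32 ± 0.13, *Sike1* (a suppressor of IKK epsilon) by 1.23 ± 0.10, the cadherin gene *Cdh12* by 1.21 ± 0.14 and *Papss2*, which makes the sulfate donor that cartilage and other matrices need, by 1.21 ± 0.09. *Papss2* ranged from 9.60 to 10.17 in ABH pools and from 8.54 to 9.04 in AZN pools. The histone H3 gene *H3c15* differed by −1.25 ± 0.14, with AZN pools between 4.81 and 6.10. *Dlx1as*, an antisense transcript at the *Dlx1* locus, differed by −1.14 ± 0.23, and whether the counting of such an array probe set separates it from its sense partner was not stated. Its lowest pool was Mutant3 (6.94), and the other AZN pools read 7.82 to 9.0.

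At the higher end, the small nucleolar RNA gene *Snora3* read 8.85, 9.37, 9.83 and 8.71 in WT ABH, 9.41, 9.23, 9.53 and 9.11 in *Rsk2-/Y* ABH, 10.31, 10.82, 10.13 and 10.61 in WT AZN and 11.13, 10.43, 10.82 and 10.99 in *Rsk2-/Y* AZN pools, a difference of 1.40 ± 0.15 (limma adjusted p = 4.23e-06). All AZN pools were above all ABH pools. *Atp5md* and *Atp5l*, subunits of the mitochondrial ATP synthase, were higher by 0.85 ± 0.09 and 0.75 ± 0.12. *Snrpd1*, a core protein of spliceosomal particles, was higher by 0.82 ± 0.07, *Churc1*, which encodes a zinc-binding factor, by 0.78 ± 0.07 and *Nthl1*, a DNA repair glycosylase, by 0.73 ± 0.05. *Nthl1* was the most even of these, at 6.62 to 6.87 in ABH and 7.32 to 7.59 in AZN pools. Neural genes were among the 10 with the largest differences too: *Nefm*, a neurofilament subunit, was higher by 0.76 ± 0.11 and *Cbln4*, a secreted synapse organiser, by 0.82 ± 0.14. *Bpifb9b*, of the BPI fold family, stood in the list at a dim level, with all ABH pools at 3.58 to 3.94 and AZN pools at 3.97 to 6.24, and passed the signal filter only through its 2 brightest WT AZN pools.

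Muscle genes were higher in the AZN pools. Of 13 myogenic regulators tested, all 13 had a positive difference and 7 were called higher (53.8% against 5.77% of all genes), namely *Cdh15*, *Chrna1*, *Des*, *Myod1*, *Myog*, *Pax3* and *Pax7*. Of 25 sarcomere and excitation-contraction genes all 25 had a positive difference and 7 were called higher (28.0% against 5.77% of all genes). These were *Casq2*, *Ckm*, *Tnnc1*, *Tnnc2*, *Tnni1*, *Tnnt1* and *Tnnt2*. The median difference was 0.55 for the regulators and 0.50 for the sarcomere genes, against 0.017 over all genes. *Pax3*, which marks muscle progenitors and neural crest, was at 6.13, 6.12, 6.07 and 6.10 in WT ABH, 6.07, 6.28, 6.45 and 5.98 in *Rsk2-/Y* ABH, 7.26, 6.99, 7.22 and 7.06 in WT AZN and 6.59, 6.49, 7.88 and 6.64 in *Rsk2-/Y* AZN pools. It was the one muscle regulator whose codes did not overlap in any genotype, and it was called in both, with a difference of 0.87 ± 0.15 (limma adjusted p = 0.000385).

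The contractile genes varied within each code. *Tnnc1*, troponin C of slow muscle, read 7.62, 7.39, 7.02 and 8.07 in WT ABH, 9.30, 7.05, 7.21 and 8.25 in *Rsk2-/Y* ABH, 7.83, 9.33, 7.94 and 8.09 in WT AZN and 8.81, 9.0, 10.45 and 9.0 in *Rsk2-/Y* AZN pools. Pools 14A, WT2 and Mutant3 stood highest in their groups and the codes overlapped. The difference was 1.07 ± 0.33 (limma adjusted p = 0.0173), at 1.36 called among *Rsk2-/Y* pools and 0.77 not called among WT pools (adjusted p = 0.293). *Myog*, the late myogenic regulator, had a difference of 0.94 ± 0.27 and the same pools at the top, 7.58 in 14A, 8.05 in WT2 and 9.04 in Mutant3. *Tnni1*, slow troponin I, was higher by 0.93 ± 0.31. Within WT, 1 of the 13 regulators and 0 of the 25 sarcomere genes were called, and within *Rsk2-/Y* 5 and 6. With pools Mutant3 and 14A left out, 11 regulators and 20 sarcomere genes were called, against 7 and 7 with them, and the medians were 0.49 and 0.54.

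All 11 osteoblast genes tested had a positive difference and 4 were called higher (36.4% against 5.77% of all genes). Within WT 1 of the 11 was called, with a median of 0.16, and within *Rsk2-/Y* 6 were, with a median of 0.37. *Ibsp*, bone sialoprotein, was at 10.39, 11.12, 10.11 and 9.79 in WT ABH, 11.22, 11.43, 9.97 and 11 in *Rsk2-/Y* ABH, 11.40, 11.18, 10.99 and 12.10 in WT AZN and 11.79, 11.89, 12.80 and 11.06 in *Rsk2-/Y* AZN pools. The codes overlapped, and the difference was 1.02 ± 0.26 (limma adjusted p = 0.00482), at 1.07 in WT and 0.98 in *Rsk2-/Y*, called in both. *Ifitm5*, an osteoblast membrane protein, was higher by 0.82 ± 0.21, the parathyroid hormone receptor gene *Pth1r* by 0.55 ± 0.12 and *Sp7*, the transcription factor osterix, by 0.30 ± 0.11. Pool Mutant3 was highest of all 16 for each of these 4 genes, at 12.80, 10.60, 10.63 and 10.27. Of 15 cartilage genes, *Cnmd* (chondromodulin) was higher and *Sox9* lower.

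Blood and plasma genes differed between pools as much as between codes. All 12 erythroid genes tested had a positive difference, with a median of 0.40 (0.06 in WT and 0.74 in *Rsk2-/Y*), and 3 were called higher. *Hbb-bh1*, an embryonic beta globin, was at 5.17, 5.48, 6.04 and 5.05 in WT ABH, 5.21, 5.62, 5.30 and 5.58 in *Rsk2-/Y* ABH, 6.74, 6.64, 5.92 and 5.76 in WT AZN and 5.93, 6.18, 7.13 and 6.89 in *Rsk2-/Y* AZN pools. The difference was 0.97 ± 0.19 (limma adjusted p = 0.00091), and the codes overlapped only through pool 13A. *Alas2*, the heme enzyme of red cells, and *Hbb-y*, another embryonic globin, were both higher by 0.58. Without both unnumbered AZN pools 6 of the 12 erythroid genes were called higher. None of 15 liver-type plasma protein genes was called, although 14 had a positive difference. Albumin (*Alb*), a liver product, ran from 6.10 to 11.95 in ABH and from 6.71 to 12.05 in AZN pools, and its difference of 0.91 ± 0.93 was smaller than its SE (limma adjusted p = 0.467).

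**Figure D2:**
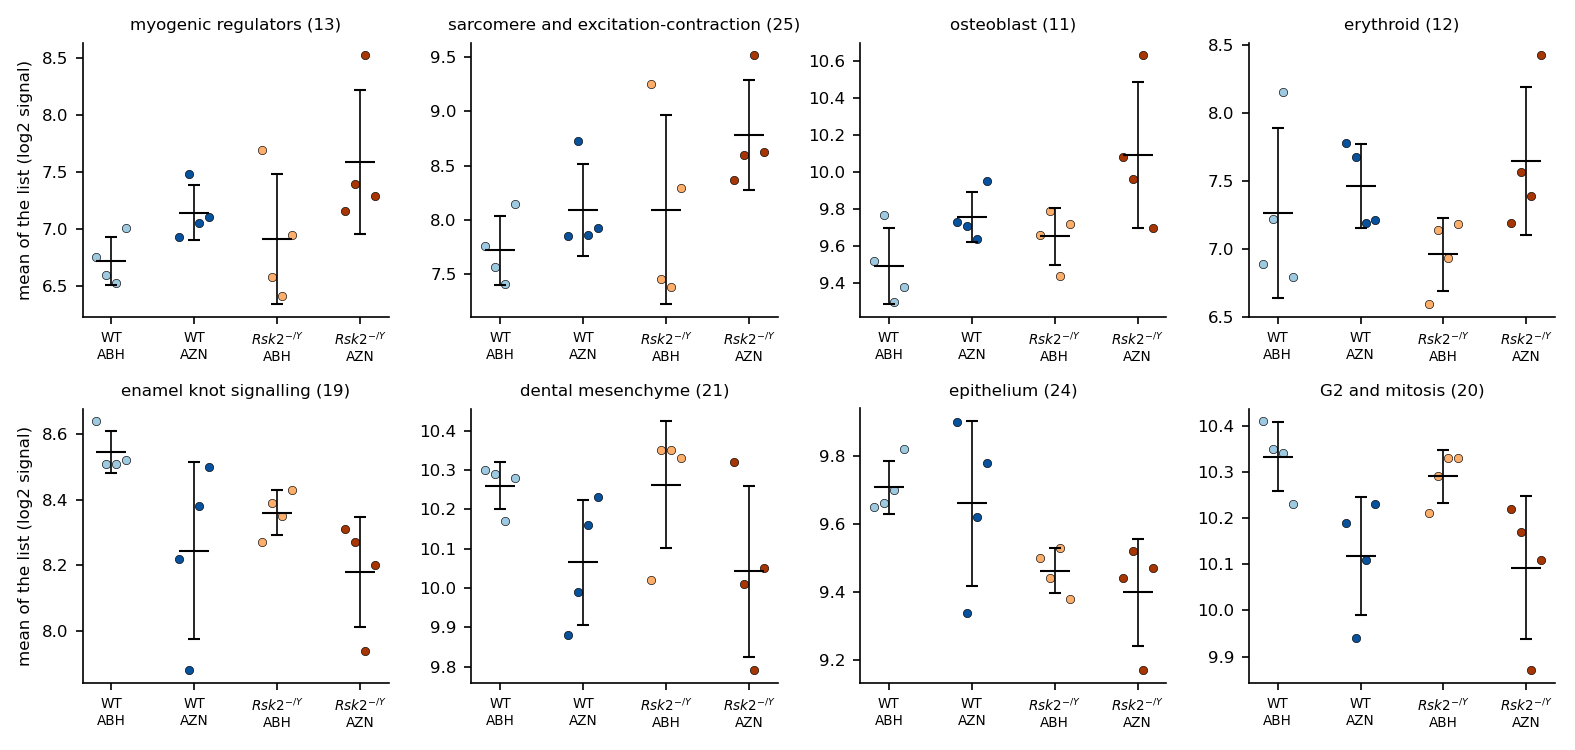
Mean log2 signal of the tested genes of 8 lists in each of the 16 pools, by genotype and series code, with the mean ± SD of each group of 4 pools as bars. Muscle, bone and erythroid lists sit higher in AZN and enamel knot and mitosis lists lower, while the pools of the codes overlap in every list drawn. Pools Mutant3 (9.52) and 14A (9.25) top the sarcomere panel.

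Tooth signalling genes were lower in the AZN pools. Of 19 genes of the enamel knot tested, 15 had a negative difference and 7 were called lower (36.8% against 10.3% of all genes): *Bmp4*, *Bmp7*, *Fgf3*, *Msx2*, *Shh*, *Slit1* and *Sostdc1*. *Wnt3* alone was called higher. *Shh*, the hedgehog ligand of the dental epithelium, read 9.79, 9.63, 9.96 and 9.66 in WT ABH, 8.99, 8.58, 9.21 and 9.12 in *Rsk2-/Y* ABH, 8.67, 7.83, 9.14 and 9.30 in WT AZN and 8.69, 8.76, 7.83 and 8.25 in *Rsk2-/Y* AZN pools. The WT codes did not overlap while the *Rsk2-/Y* codes did. The difference was −0.81 ± 0.19 (limma adjusted p = 0.00287), with −1.02 in WT, called, and −0.59 in *Rsk2-/Y*, not called (adjusted p = 0.106), and the 2 differences were not shown to differ (adjusted p = 0.856 for the interaction). *Slit1*, an axon guidance ligand made by the knot, was lower by 0.32 ± 0.06. *Sostdc1*, a secreted BMP and WNT antagonist of the epithelium around the knot, was lower by 0.72 ± 0.17 and had its lowest values in pools Mutant3 (10.47) and WT2 (10.79).

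Of 21 dental mesenchyme genes tested 16 had a negative difference, and the list's median was −0.11 against −0.23 for the enamel knot list. Among them 7 were called lower (33.3% against 10.3% of all genes: *Dlx2*, *Dlx5*, *Fgf3*, *Inhba*, *Lhx6*, *Prrx2* and *Tfap2b*), and *Twist1* was called higher. Group means of this list were 10.04 to 10.26, and 19% of all genes were lower at signals of 10 to 11. *Inhba*, the activin subunit that the mesenchyme signals with, was at 11.52, 11.47, 11.25 and 11.43 in WT ABH, 11.12, 11.62, 11.63 and 11.47 in *Rsk2-/Y* ABH, 10.03, 10.35, 10.34 and 10.70 in WT AZN and 10.70, 10.45, 9.87 and 10.39 in *Rsk2-/Y* AZN pools. All AZN pools were below all ABH pools, by 1.09 ± 0.11 (limma adjusted p = 2.92e-06), and the difference was nearly the same in WT (−1.06) and *Rsk2-/Y* (−1.11). *Tfap2b*, an AP-2 transcription factor of the neural crest, spanned 10.74 to 11.27 in ABH and 9.07 to 10.68 in AZN pools, a difference of −0.77 ± 0.17 with no overlap. *Dlx5*, a homeobox gene of the lower jaw, differed by −0.70 ± 0.10 without overlap. *Twist1*, a mesenchymal bHLH factor, went the other way at 9.26 to 9.67 in ABH and 9.84 to 10.03 in AZN pools, by 0.39 ± 0.05.

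The BMP and activin pathway had 6 of 23 genes lower (26.1% against 10.3% of all genes) and none higher with genotype as a block. Within WT 7 were lower and 0 higher, and within *Rsk2-/Y* 6 lower and 2 higher. The tooth signalling lists share genes, so their counts are not separate. *Bmp4*, *Bmp7*, *Msx2* and *Inhba* are also in the lists above, *Fgf3* is in both of those, and *Shh* and *Sostdc1* recur below. Among ligands, *Bmp4* was at 11.15 to 11.57 in ABH and 10.52 to 11.01 in AZN pools, by −0.64 ± 0.08 (limma adjusted p = 1.48e-05), and *Bmp7* and *Bmp3* were lower by 0.37 ± 0.07 and 0.34 ± 0.07. Among targets, *Msx2* was lower by 0.64 ± 0.13 and *Id4* by 0.72 ± 0.11. In the hedgehog pathway 4 of 12 genes were lower (33.3% against 10.3% of all genes). These were the ligand *Shh*, the receptor *Ptch1* (−0.41 ± 0.10), the decoy receptor *Hhip* (−0.82 ± 0.16) and the effector *Gli1* (−0.45 ± 0.10), the last 3 being targets of the pathway. All 4 were called in WT and 1, *Hhip*, in *Rsk2-/Y* pools. Another 2 genes of the list were called higher within WT and 0 within *Rsk2-/Y*. Among WNT targets and antagonists 3 of 20 were lower (15%, near the 10.3% of all genes), the antagonists *Dkk1*, *Sfrp1* and *Sostdc1*, and *Sfrp1* differed by −0.67 ± 0.09 with no overlap between codes. Without both unnumbered AZN pools 8 of these 20 were called lower. Of 13 FGF and ERK feedback genes, the transcription factors *Etv1*, *Etv4* and *Etv5* and the phosphatase *Dusp6* were lower (30.8% against 10.3% of all genes). *Dusp6* differed by −0.56 ± 0.13, with its lowest value, 9.78, in pool Mutant3. The inhibitor *Spred2* has no settled direction, since its brighter probe set was called higher (0.31) and its other probe set lower (−0.40).

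**Figure D3:**
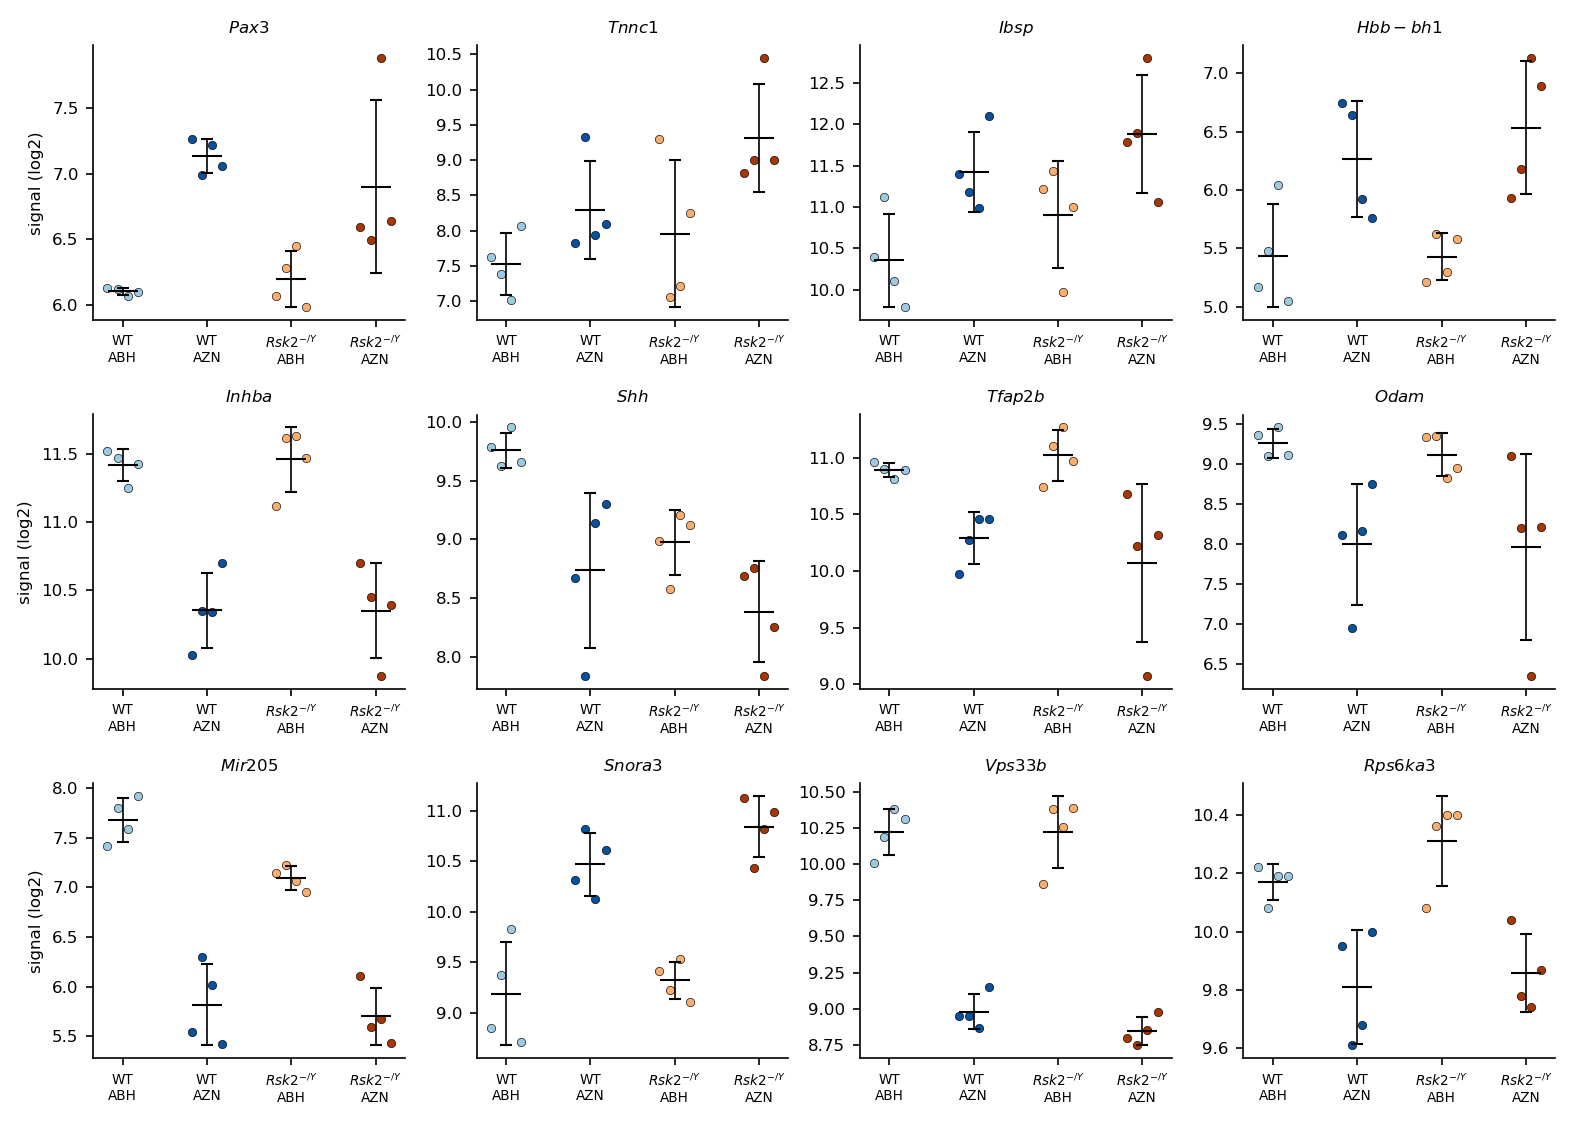
Log2 signal of 12 genes in each of the 16 pools, by genotype and series code, with the mean ± SD of each group of 4 pools. *Pax3*, *Snora3*, *Inhba*, *Tfap2b*, *Mir205*, *Vps33b* and *Rps6ka3* show codes that do not overlap, while *Tnnc1*, *Ibsp*, *Hbb-bh1*, *Shh* and *Odam* show codes that do.

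Pools rich in muscle transcripts had low tooth signals in most groups. In 3 of the 4 groups the pool with the highest sarcomere mean had the lowest enamel knot mean. These were WT2 (8.73 for the sarcomere list and 7.88 for the enamel knot list), Mutant3 (9.52 and 7.94) and 14A (9.25 and 8.27). The step was smaller in 14A, as the other *Rsk2-/Y* ABH pools had enamel knot means of 8.35 to 8.43, and its epithelial mean of 9.50 lay within the 9.38 to 9.53 of those pools. WT2 and Mutant3 had the lowest epithelial means of their groups, 9.34 and 9.17. With Mutant3 and 14A left out, the enamel knot list had 7 genes called lower and the dental mesenchyme list 8. That subset was chosen after seeing the data and kept WT2, so it does not show what muscle-rich pools contribute. The part of tissue content in the lower tooth signals was not tested.

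Epithelial genes were split. Of 24 tested, 13 had a negative and 11 a positive difference. *Cdh1*, *Epcam*, *Esrp1* and *Krt17* were lower (16.7% against 10.3% of all genes) and *Krt15* was higher (4.17% against 5.77%). *Krt17*, a keratin of the oral epithelium, was at 12.24 to 12.62 in ABH and 11.18 to 12.38 in AZN pools, a difference of −0.60 ± 0.13. *Krt15*, a keratin of basal cells, was at 8.99 to 10.18 in ABH and 9.66 to 10.76 in AZN pools, a difference of 0.59 ± 0.11, and did not overlap within either genotype. The adhesion genes *Cdh1* (E-cadherin) and *Epcam* differed by −0.32 ± 0.07 and −0.37 ± 0.10. In differentiating oral epithelium 2 of 17 were lower (11.8%, near the 10.3% of all genes), *Krt6a* by 0.91 ± 0.15 and the desmosomal cadherin *Dsg3* by 0.37 ± 0.13. Of 9 genes of enamel and dentin matrix, *Odam* and *Enam* were lower (22.2% against 10.3% of all genes). The list as a whole was not lower, as 6 of the 9 had a positive difference. Its median was 0.07, at 0.01 in WT and 0.09 in *Rsk2-/Y*. *Odam*, an ameloblast-associated protein, read 9.36, 9.10, 9.46 and 9.11 in WT ABH, 9.33, 9.35, 8.83 and 8.95 in *Rsk2-/Y* ABH, 8.11, 6.96, 8.16 and 8.75 in WT AZN and 9.10, 8.20, 6.35 and 8.21 in *Rsk2-/Y* AZN pools. The ABH pools were even and the AZN pools spread widely downward, with a difference of −1.21 ± 0.30 (limma adjusted p = 0.00437). *Enam*, enamelin, was dim (4.66 to 5.76), its call at −0.28 did not hold in most of the alternative settings, and it is named as a low signal only.

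Connective tissue and vessel wall genes were mostly lower where they were called. Of 18 connective tissue and tendon genes 14 had a negative difference, and *Col12a1*, *Fbln1*, *Fbln5*, *Thbs2* and *Tnmd* were called lower (27.8% against 10.3% of all genes). The list's group means were 10.12 to 10.27, and at signals of 10 to 11, 19% of all genes were lower. *Dpt*, dermatopontin, a matrix protein of dermis and fascia, was called higher with one of the largest differences of the table, 1.49 ± 0.37 (limma adjusted p = 0.00426). Its pools read 8.78, 7.41, 7.60 and 7.92 in WT ABH, 5.91, 7.90, 6.91 and 6.33 in *Rsk2-/Y* ABH, 8.95, 8.11, 8.84 and 9.43 in WT AZN and 9.65, 7.46, 9.75 and 8.46 in *Rsk2-/Y* AZN pools, so the codes overlapped in both genotypes. Among WT pools *Dpt* differed by 0.91, not called (limma adjusted p = 0.234), and among *Rsk2-/Y* pools by 2.07, called (adjusted p = 0.00652). These differences were not shown to differ (adjusted p = 0.817 for the interaction). Of 13 smooth muscle and pericyte genes 4 were lower (30.8% against 10.3% of all genes), among them *Rgs5* (−0.62 ± 0.15) and the PDGF receptor gene *Pdgfrb* (−0.50 ± 0.09). The list's median was near 0 and its sign turned with median centring. Endothelial genes went both ways. *Cldn5* (a tight junction protein) and *Egfl7* were higher (11.1% of 18, against 5.77%), and *Kdr* (a VEGF receptor) and *Robo4* lower (11.1%).

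Macrophage and nerve genes were raised in part. Of 16 macrophage genes *Lyz2*, *Aif1* and *Tyrobp* were higher (18.8% against 5.77% of all genes) and *F13a1* lower, though 11 of the 16 had a negative difference. *Lyz2*, lysozyme, was at 7.83 to 8.81 in ABH and 8.50 to 9.66 in AZN pools, a difference of 0.79 ± 0.14 (limma adjusted p = 0.000471), with the highest value in the unnumbered *Rsk2-/Y* AZN pool. That pool also had the highest *Tyrobp* (9.11), whose call was lost without both unnumbered AZN pools. Of 17 neuronal genes 4 were higher (23.5%), including *Nefm* and *Nefl* (0.57 ± 0.14), and *Uchl1* was lower. Of 9 Schwann cell and glial genes 3 were higher (33.3%). Among them *Sox10*, a glial and neural crest factor, was at 6.65 to 6.91 in ABH and 6.94 to 7.42 in AZN pools (0.34 ± 0.06). *Gfra3*, a GDNF family receptor, was higher by 0.47 ± 0.08. The remaining one, *Fabp7*, was higher by 0.65 ± 0.28, was called in neither genotype alone and lost its call in 17 of the alternative settings. *Ngfr* was lower by 0.28 ± 0.09. Of 7 salivary gland genes *Dcpp1* and *Bpifa2* were called higher, by 0.27 and 0.37 at dim signals (*Bpifa2* passed the signal minimum only through AZN pools), and both calls were lost when 1 pool was left out.

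Of 16 transcription factors that mark positions in the jaws and palate, 2 were higher (12.5% against 5.77% of all genes) and 3 lower (18.8% against 10.3%), with a median of 0.06 in WT and −0.04 in *Rsk2-/Y*. *Tbx22*, a factor of palate and tongue mesenchyme, was at 5.59 to 6.21 in ABH and 5.87 to 6.82 in AZN pools (0.59 ± 0.10, limma adjusted p = 0.000199) and did not overlap among WT pools. *Hand2*, of the distal mandible, was higher by 0.29 ± 0.11 with its highest value, 7.61, in Mutant3. *Osr1*, a factor of jaw mesenchyme, was lower by 0.43 ± 0.07, and *Foxf1* and *Six2* by 0.44 ± 0.12 and 0.29 ± 0.12. The call of *Foxf1* was lost when its probe sets were averaged. Of 18 retinoid genes 5 were higher (27.8% against 5.77% of all genes) and none lower. They were the binding proteins *Crabp1* and *Crabp2* (0.45 ± 0.07, no overlap), the vitamin A transporter *Stra6*, the retinol dehydrogenase *Rdh10* and the receptor *Rxrg*. With Mutant3 and 14A left out 2 of them were called. *Rxrg*, at 9.34 in Mutant3, kept its call without that pool and lost it without pool 16A and under the methods' t-test.

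MicroRNA genes were called lower more often than higher. Of 188 tested, 33 were lower (17.6% against 10.3% of all genes) and 8 higher (4.26%), and the median over all 188 was −0.001. Of the 33 lower genes, 5 passed the signal minimum of 5 only through ABH pools, *Mir301*, *Mir130a*, *Mir17* and *Mir19b-1* among them, and could then be called in that direction alone. A microRNA guides silencing through bases 2 to 8 of its mature strand, the seed, so mature sequences are shown of the 3 microRNA genes among the largest differences, of miR-130a, which shares a seed with one of them, of 2 members of the *Mir17* cluster and of the epithelial miR-200b, from RefSeq (GRCm38.p6), 5′ to 3′, with the seed in capitals. Mature sequences were matched for 39 of the 41 called genes. The array reads the locus and does not tell a strand of the hairpin or the mature from the precursor form.
miR-205-5p: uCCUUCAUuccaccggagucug
miR-568: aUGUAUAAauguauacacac
miR-301a-3p: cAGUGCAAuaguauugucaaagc
miR-130a-3p: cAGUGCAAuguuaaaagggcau
miR-18a-5p: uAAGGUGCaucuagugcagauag
miR-19b-3p: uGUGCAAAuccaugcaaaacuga
miR-200b-3p: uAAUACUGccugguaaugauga

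miR-205-5p lies on the minus strand at chr1:193507503-193507524. The miR-301a and miR-130a strands, from chr11:87113054-87113076 (plus) and chr2:84741116-84741137 (minus), share the seed AGUGCAA, and both loci were lower. *Mir301* read 4.87 to 5.97 in ABH and 3.92 to 4.46 in AZN pools (−1.21 ± 0.13, limma adjusted p = 5.86e-06), and *Mir130a* read 5.23 to 5.93 and 4.03 to 4.94 (−1.13 ± 0.11, adjusted p = 2.14e-06). Both were dim, with every AZN pool under the minimum, so their values are a description. *Mir568*, at chr16:43640665-43640684 (plus), was at 5.87 to 6.78 in ABH and 4.76 to 5.40 in AZN pools (−1.27 ± 0.13).

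The *Mir17* cluster strands lie within a short span of chromosome 14, with miR-18a-5p at chr14:115043867-115043889 and miR-19b-3p at chr14:115044358-115044380, both on the plus strand. *Mir18* was at 6.83 to 7.24 in ABH and 5.21 to 6.80 in AZN pools, a difference of −0.93 ± 0.16, and *Mir19b-1* differed by −0.84 ± 0.14. *Mir17* itself differed by −0.47. *Mir200b*, whose strand lies at chr4:156055685-156055706 (minus), differed by −0.81 ± 0.13. A group of loci on chromosome 12 was lower too: *Mir382* by 1.27 ± 0.22, *Mir377* by 1.14 ± 0.23 and *Mir323* by 0.96 ± 0.22. In these 3 the lowest AZN pools were the unnumbered WT pool (5.72, 6.48 and 6.35) and the unnumbered *Rsk2-/Y* pool (5.71, 6.88 and 6.71). Those pools bore on the class as a whole. Without them, 23 of 191 microRNA genes and host genes were called higher and 29 lower, against 8 and 35 with them, and without Mutant3 and 14A 17 were higher and 31 lower.

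Other small noncoding RNAs were called in both directions. Of 52 small nucleolar RNAs 12 were higher (23.1% against 5.77% of all genes) and 10 lower (19.2% against 10.3%), so that 22 of 52 were called. Within WT 6 were higher and 6 lower, and within *Rsk2-/Y* 8 and 8. *Snora73a* and *Snora73b*, copies of one small nucleolar RNA whose signals may not be independent, were higher by 1.07 ± 0.19 and 1.11 ± 0.19 and *Snord53* by 1.18 ± 0.25, while *Snora23* and *Snora52* were lower by 0.68 ± 0.18 and 0.50 ± 0.10. All 3 RNase P RNA probe sets were higher, as were both Y RNAs, the RNase MRP RNA *Rmrp* (0.42 ± 0.14) and the 5S ribosomal RNA gene *n-R5s136* (1.23 ± 0.26). Within *Rsk2-/Y* all of these were called. Within WT both Y RNAs were called, and the RNase P RNAs, *Rmrp* and *n-R5s136* were not. *Rny1*, a Y RNA bound by the Ro protein, was at 6.20, 7.49, 7.99 and 6.94 in WT ABH, 6.74, 7.32, 7.33 and 7.49 in *Rsk2-/Y* ABH, 8.54, 9.03, 8.58 and 7.73 in WT AZN and 8.16, 9.03, 9.41 and 8.86 in *Rsk2-/Y* AZN pools. The difference was 1.48 ± 0.24 (limma adjusted p = 0.000171), and only pool 13A and the unnumbered WT AZN pool overlapped. Without both unnumbered AZN pools 22 small nucleolar RNAs of the 53 listed were higher and 5 lower, and their median turned from −0.05 to 0.11.

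**Figure D4:**
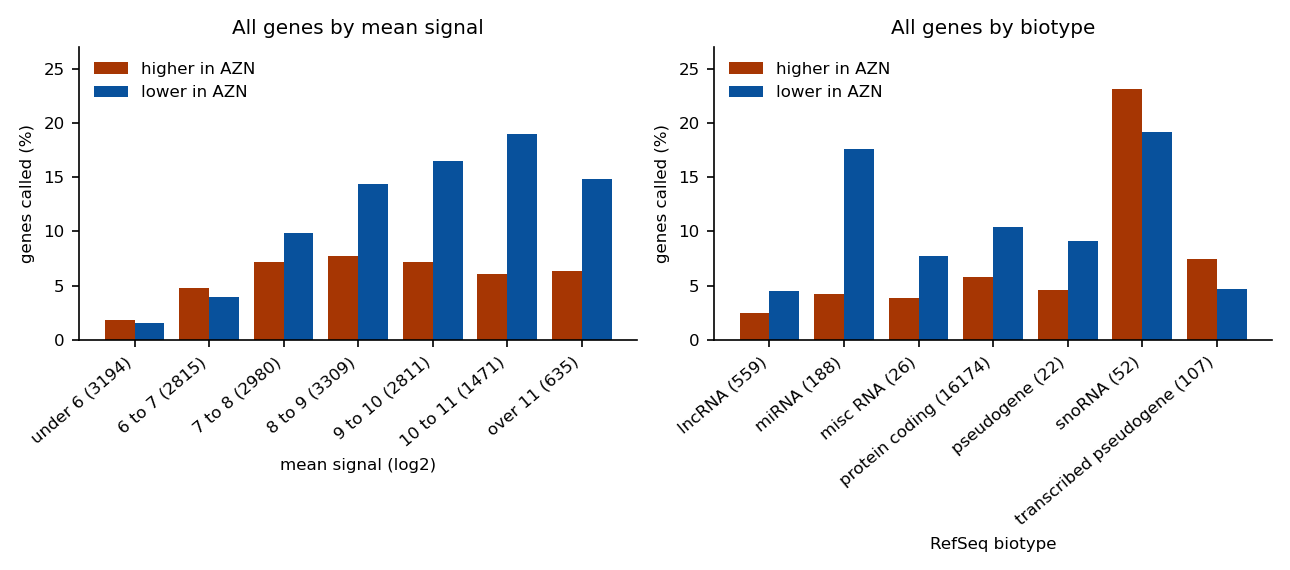
Percent of genes called higher (orange) and lower (blue) in AZN pools, by mean log2 signal over all pools (left) and by RefSeq biotype (right, classes of at least 20 genes), with the number of genes in brackets. The share lower rises from 1.57% under a signal of 6 to 19% at 10 to 11, and against protein coding genes (5.79% higher, 10.4% lower) small nucleolar RNA genes have larger shares in both directions and microRNA genes in the lower direction (17.6%) but not in the higher (4.26%).

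The share of genes called depended on signal. Under a mean signal of 6, 1.82% were called higher and 1.57% lower, and at a signal of 10 to 11, 6.05% and 19%. X-linked genes had 26 of 565 higher and 97 lower (17.2%). Long noncoding RNAs had 2.50% higher and 4.47% lower of 559. Gene lists are therefore set beside counts over all genes of mixed signal, and signal levels were not matched.

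Genes of respiration and translation were called higher more often than all genes (5.77%). Of 80 oxidative phosphorylation subunits, 62 had a positive difference, 24 were higher (30.0%) and 5 lower, with a median of 0.18. Within WT 13 were higher and 7 lower, and within *Rsk2-/Y* 35 and 5. Of 60 cytosolic ribosomal proteins 12 were higher (20%) and 2 lower, the 2 being *Rplp2* (−0.63 ± 0.07) and *Rps21* (−0.56 ± 0.08), both without overlap between codes at these probe sets. A second probe set of *Rps21* was at 0.0 and not called, and the mean of its probe sets differed by −0.28. Of 77 mitochondrial ribosomal proteins 17 were higher (22.1%) and 7 lower (9.09%), but within WT pools 9 were higher and 9 lower with a median of 0.01, and within *Rsk2-/Y* pools 20 and 5 with a median of 0.09. Among them was *Mrpl27* at 9.12 to 9.33 in ABH and 9.72 to 10 in AZN pools (0.70 ± 0.05, limma adjusted p = 1.31e-07). Of 40 proteasome subunits 7 were higher (17.5%) and 2 lower (5.0% against 10.3% of all genes), with the catalytic subunit *Psmb5* at 0.45 ± 0.04 without overlap and the regulator *Psmd5* at −0.41 ± 0.07. Of 29 replication-dependent histone genes 6 were higher (20.7% against 5.77% of all genes) and 2 lower (6.9% against 10.3%). The linker histone *H1f1*, higher by 0.87 ± 0.25, was split within ABH, at 12.63 in 13A, 12.79 in 14A and 12.57 in 16A against 11.02 to 11.43 in the other 5 pools.

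Of 332 zinc finger *Zfp* genes 46 were lower (13.9%) and 11 higher (3.31%), with a median of −0.05. The list's group means were 7.91 to 8.0. The share lower was 10.3% over all genes, 9.87% over genes at a signal of 7 to 8 and 14.4% at 8 to 9. *Zfp39* was at 8.98 to 9.48 in ABH and 8.13 to 8.77 in AZN pools (−0.84 ± 0.08) and *Zfp654* differed by −0.76 ± 0.07. Of 21 protocadherins, cell adhesion proteins of neurons and mesenchyme, 7 were lower (33.3%) and 18 had a negative difference, with *Pcdhb17* at −0.71 ± 0.09. Members of this cluster are similar in sequence, so their signals may be shared. Of 261 olfactory receptor genes, 4 were higher and none lower. None of 20 defensins or 10 vomeronasal receptors was called.

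**Figure D5:**
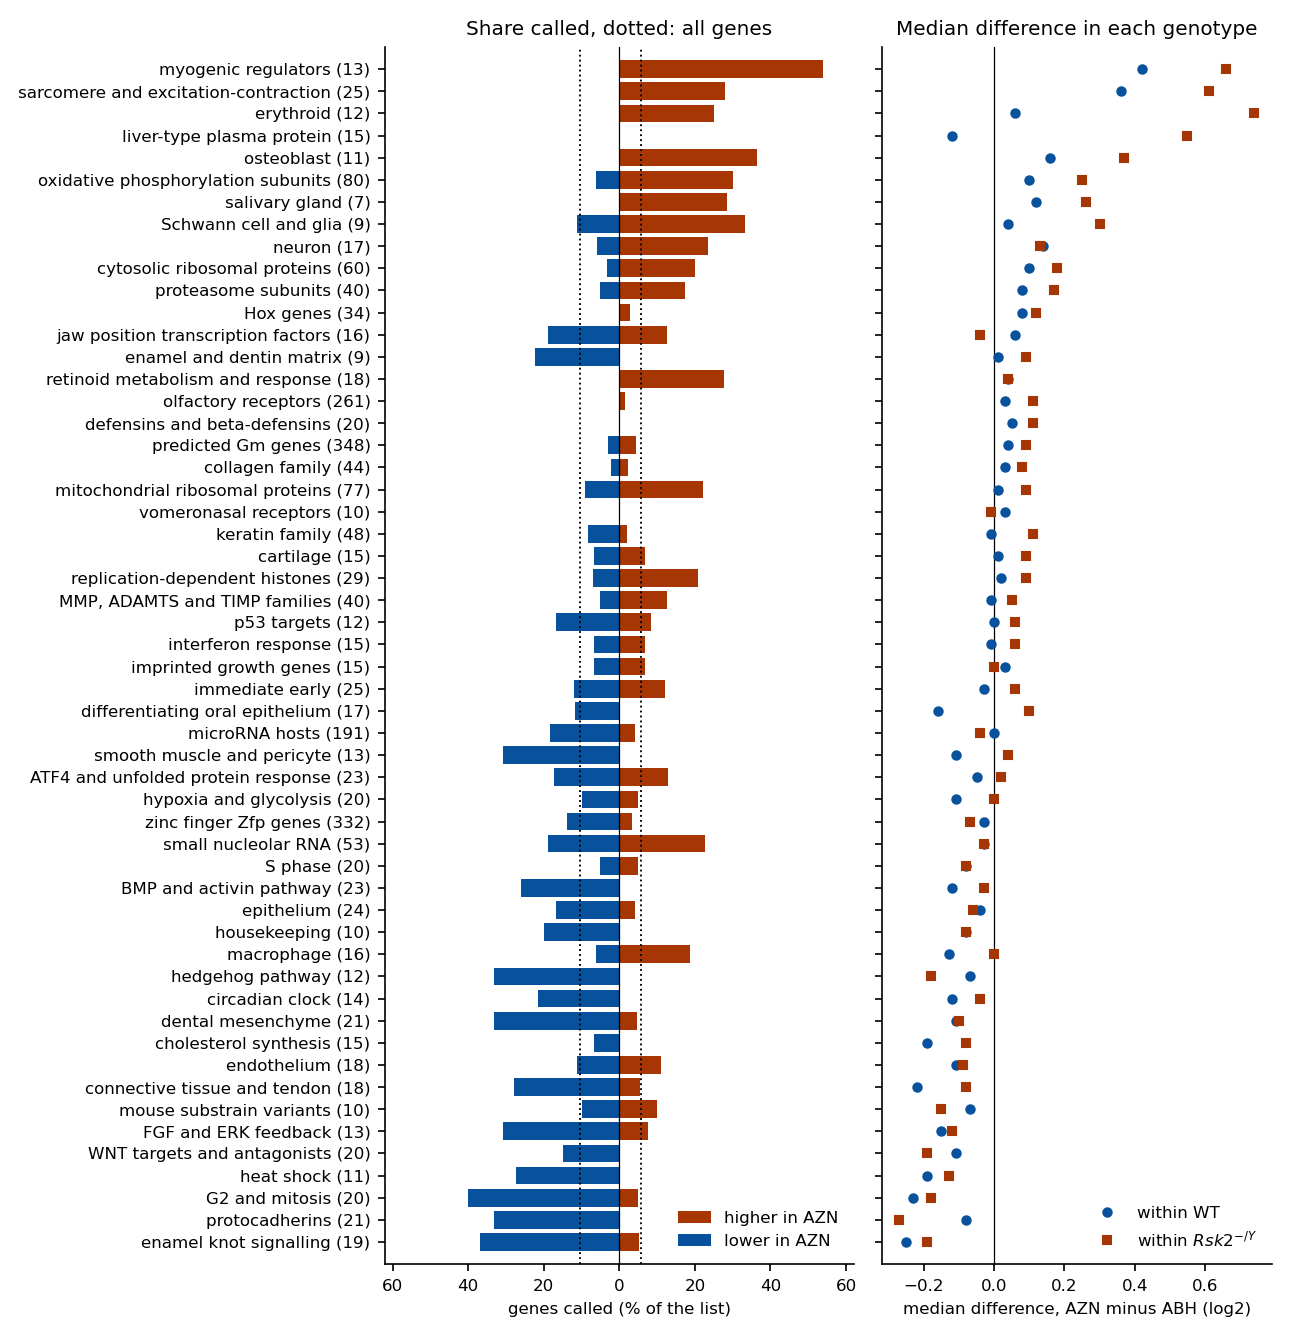
Percent of each list's tested genes called higher (orange) or lower (blue) in AZN pools (left, dotted lines at the shares over all genes, 5.77% and 10.3%), and the median AZN minus ABH difference in WT (circles) and *Rsk2-/Y* (squares) pools (right), for lists with at least 7 genes tested. Of the lists drawn, the myogenic list has the largest share called higher (53.8%) and the G2 and mitosis list the largest share called lower (40%), with WT and *Rsk2-/Y* medians mostly on the same side of 0.

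Of 20 G2 and mitosis genes 19 had a negative difference and 8 were called lower (40% against 10.3% of all genes), and 8 of 20 were called lower in WT and in *Rsk2-/Y* pools alike. The list's group means were 10.09 to 10.33, and at signals of 10 to 11, 19% of all genes were lower. *Mki67*, the Ki-67 proliferation antigen, was at 11.53 to 11.74 in ABH and 10.81 to 11.44 in AZN pools (−0.43 ± 0.08, limma adjusted p = 0.000353). *Hmmr* and *Cenpe*, of the spindle and kinetochore, were lower by 0.50 ± 0.08 and 0.46 ± 0.06 with no overlap. The kinase gene *Cdk1* was the exception, at 10.85 to 11.04 in ABH and 11.12 to 11.46 in AZN pools (0.40 ± 0.05). S phase genes had 1 higher and 1 lower of 20.

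Stress and rhythm genes moved in small numbers. Of 25 immediate early genes 3 were higher (*Jund*, *Klf2* and *Klf4*) and 3 lower (*Dusp1*, *Egr1* and *Nr4a2*). *Klf2*, a flow-responsive factor, was even at 7.30 to 7.46 in ABH and 7.65 to 7.88 in AZN pools (0.39 ± 0.04). Of 11 heat shock genes *Hspb1*, *Hspd1* and *Hsph1* were lower (27.3% against 10.3% of all genes). Of 14 circadian genes *Bhlhe40*, *Clock* and *Dbp* were lower (21.4% against 10.3%), with *Clock* at −0.52 ± 0.05 and no overlap. Of 23 ATF4 and unfolded protein genes 3 were higher and 4 lower, of 20 hypoxia genes 1 and 2, of 15 interferon genes 1 and 1, of 15 cholesterol synthesis genes 0 and 1, and of 12 p53 targets 1 and 2. These shares were near those of all genes or rested on 1 to 4 genes.

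Kinase, substrain, sex-linked and housekeeping genes differed singly. The 3 RSK and MSK kinase genes tested all had a negative difference, and *Rps6ka3* and *Rps6ka5* (MSK1) were called, the latter by −0.35 ± 0.07. Of 10 genes known to differ between mouse substrains, *Cyfip2* was at 9.15 to 9.47 in ABH and 7.99 to 8.94 in AZN pools (−0.77 ± 0.12, limma adjusted p = 9.75e-05) and *Entpd4* was higher by 0.30 ± 0.10, a call lost without Mutant3 (11.05). Of 4 sex-linked genes the Y-linked *Uty* was called, at −0.28 ± 0.08, and lost its call in several settings. Of 10 housekeeping genes *Tfrc* (−0.59 ± 0.10) and *Ywhaz* (−0.37 ± 0.05) were lower. Imprinted growth genes had 1 of 15 higher, *Nnat* (0.49 ± 0.08), and 1 lower, *Sgce* (−0.34 ± 0.05).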

How the data were processed

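RNA of 16 molar germ pools was hybridised to Affymetrix Mouse Gene 1.0 ST arrays. The authors normalized the arrays by RMA in Affymetrix Expression Console (version 1.3.1.187, per the labels), and the deposited values are log2 signals. The labels and the methods differ on the RNA used per array (150 and 300 ng). Arrays give no counts, so their number, 8 per code and 4 per group, limits the precision.

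Of 35556 probe sets, 21789 had 1 symbol in the platform annotation and 1621 had several. The 19979 of both kinds with a signal above 5 in at least 1 pool were tested. Probe sets with several symbols were tested but not read as genes. A gene with several probe sets of its own was read at the one with the highest mean, leaving 17215 genes. The probe sets without a symbol (9145 above the minimum) entered an alternative only, as did a test without the genotype term. Differences are AZN minus ABH, fitted with limma (version 3.58.1, R 4.3.3) on all 16 pools with genotype as a block, and within each genotype and for the interaction from the 4 group means. P-values were two-sided and Benjamini-Hochberg adjusted over the probe sets tested, and a gene was called at an adjusted p under 0.1 and a fold change beyond 1.2, the methods' thresholds. The scripts were tested on simulated data.

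The comparison and its 57 gene lists were chosen with earlier results of these data known. Lists carry counts and medians with no test. Named are the 10 genes with the largest difference in each direction among called genes whose codes overlap in neither genotype, up to 2 called genes of each list, *Rps6ka3*, and the brightest gene of a list with none called. Genes named beside these were picked with their values in view. RefSeq tables (GRCm38.p6) gave biotypes for 17152 genes, chromosomes and microRNA sequences, with no other coordinates used. Alternatives were other filters, scalings, spreads, thresholds and tests, and the loss of each pool.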

Additional observations from a re-analysis of the deposited data

Results flagged for a closer look

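Of 524 groups of 4 pools examined (the named genes and the cell type lists), 38 values stood apart from the other 3 pools of their group by Dixon's criterion, while chance sets apart about 1 in 20 groups, and most of these were small steps. Pool 14A held 8 of them. It read low for *Cdh12* (7.80), *Nefl* (8.05), *Pfkp* (7.20), *Robo4* (8.21), *Slc7a5* (11.37), *Rps6ka3* (10.08) and the dental mesenchyme list mean (10.02), and high for *Uty* (9.05).

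Pool Mutant3 was high for *Tnnc1* (10.45), *Pax3* (7.88), *Rxrg* (9.34) and *Klf4* (9.31) and low for *Dusp6* (9.78). The unnumbered *Rsk2-/Y* AZN pool was high for *Cldn5* (9.28), *Cnmd* (6.87), *Sgce* (9.94) and the macrophage list mean (8.40). Pool WT2 was high for *H3c15* (6.10) and the sarcomere list mean (8.73) and low for *Hspb1* (9.37) and *Trp53inp1* (8.82). The unnumbered WT AZN pool stood apart at 9.62 for *Ifitm5* and 8.36 for the smooth muscle and pericyte list mean.

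Pool 25A stood apart for *Clock* (9.20), *Mrpl46* (7.75), *Trp53inp1* (9.89), *Zfp39* (9.48) and the differentiating oral epithelium list mean (7.29). Pool 13A did so for *Alas2* (8.92), *H1f1* (12.63), *Uty* (9.03) and the dental mesenchyme list mean (10.17), and 11A for *Gm24463* (9.0) and the enamel knot list mean (8.64). Pool 16A was apart for *Cnmd* (6.06) and *Ifitm5* (8.07), 26A for *Krt75* (8.25) and 15A for the liver-type plasma protein list mean (7.64).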

How the results depend on the processing

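No paired analysis was possible because the AZN and ABH pools share no replicate numbers. There were 33 alternatives. The interaction called 0 genes in each one it was computed in, which leaves out the fit without a genotype term, the fits on 1 genotype and the methods' t-test. With median centring the *Rsk2-/Y* balance turned, to 1794 higher and 1699 lower. Leaving out 1 pool gave 886 to 1083 genes higher and 1633 to 1955 lower with genotype as a block, 617 to 805 and 1137 to 1891 among WT and 1241 to 1811 and 1560 to 2360 among *Rsk2-/Y* pools. A 1.5-fold minimum left 84 higher and 202 lower, 61 and 204 among WT, and 146 and 262 among *Rsk2-/Y* pools, by its own construction. The methods' t-test without a genotype term, after Benjamini-Hochberg, called 948 and 1741 genes. Without Mutant3 and 14A, an alternative chosen after seeing the data, 923 and 1801 genes were called, and without both unnumbered AZN pools 1065 and 2195. Of 111 called genes among the named, none reversed, 56 did not pass 1.5-fold and 14 lost the call under some other alternative, 10 of them when 1 pool was left out (*Bpifa2*, *Col22a1*, *Dcpp1*, *Enam*, *Entpd4*, *Fabp7*, *Hoxb6*, *Psmb8*, *Rxrg* and *Uty*). Signals near the minimum of 5 limit what can be read from dim genes.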
